A study of Mus musculus with 14 samples.

Results

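The genes described here encode collagens and other proteins of the extracellular matrix, 40 of the 32285 genes counted in single cells from white nodules of Eif3e conditional knockout (cKO) mice. They were chosen by symbol and fall into 8 role groups. The fibrillar collagens were Col1a1, Col1a2, Col3a1, Col5a1, Col5a2 and Col5a3. The collagens of basement membranes were Col4a1, Col4a2, Col15a1 and Col18a1. The other collagens were Col6a1, Col6a2, Col6a3, Col8a1, Col12a1, Col13a1 and Col14a1. The small leucine-rich proteoglycans were Dcn, Lum and Bgn, and the elastic fiber genes were Fbn1, Eln, Fbln1, Fbln2 and Fbln5. The crosslinking enzymes were Lox and Loxl1. The adhesive and matricellular glycoproteins were Fn1, Mgp, Sparc, Sparcl1, Postn, Tnc, Thbs1, Thbs2 and Aebp1, and the protease and its inhibitors were Mmp2, Timp1, Timp2 and Timp3.

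Each of 7 mice gave 1 nodule and 1 RNA library. Every mouse carried Eif3e fl/fl with Cγ1 Cre/+, a Cre allele that acts in B cells responding to antigen, and Rosa26-YFP was also listed for mice 29, 31, 32 and 34. The nodule came from liver in mice 27 (12 months old) and 30 (14 months), from lung in mouse 29 (12 months), from spleen in mice 31 (13 months) and 32 (12 months), from thymus in mouse 33 (16 months), and from lung and thymus in mouse 34 (9 months). A B cell receptor library accompanied the RNA of mice 27, 29, 31, 33 and 34, and a T cell receptor library that of mice 30 and 32. No control mouse was among the libraries, so that site, age and mouse cannot be told apart. The study describes the mouse 27 sample as a secondary tumor, transplanted from a primary nodule. Its tumor transplants went into Rag2−/− mice. The stroma of this sample may therefore be that of a Rag2−/− host and not of mouse 27 or its genotype. Its list of mice enters mouse 34 as a mix of JHT and cKO cells under the term BMR, while its nodule is called a primary tumor. A total of 75503 cells passed the filters, with 19254544 to 122550206 unique molecular identifiers (UMIs) and a median of 1364 to 5319 UMIs a cell per library. Between 96 and 286 cell barcodes, 1.2 to 2.28%, were shared by each of the 21 pairs of libraries.

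The matrix holds cells in place, gives tissue its stiffness and stores growth factors. Collagen chains are wound into triple helices inside the cell, trimmed after secretion and crosslinked by lysyl oxidases. Fibroblasts make most of the interstitial matrix, mural cells wrap vessels and make elastic and basement membrane components, and endothelial cells lay down the type IV collagen sheet on which they sit. Metalloproteinases cut these proteins, and the TIMP family inhibits the metalloproteinases.

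The 250 bases before the gene start are shown for 4 members on which the comparisons turn, 2 collagens of fibroblasts and 2 protease inhibitors. The sequences are from a RefSeq promoter table on GRCm38.p6, in which 26 of the 40 members were matched, and run 5′ to 3′ along the strand of the gene. Capitals mark matches on either strand to a CCAAT box, to the TATA box spelled TATAAA, and to the GC box spelled GGGCGG.
Col1a2 (chr6:4505368-4505617, plus strand): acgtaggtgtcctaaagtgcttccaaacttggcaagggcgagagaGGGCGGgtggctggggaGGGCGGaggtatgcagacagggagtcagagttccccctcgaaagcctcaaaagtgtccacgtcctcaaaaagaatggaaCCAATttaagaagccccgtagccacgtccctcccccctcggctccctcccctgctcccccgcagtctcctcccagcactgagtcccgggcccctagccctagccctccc
Col3a1 (chr1:45311288-45311537, plus strand): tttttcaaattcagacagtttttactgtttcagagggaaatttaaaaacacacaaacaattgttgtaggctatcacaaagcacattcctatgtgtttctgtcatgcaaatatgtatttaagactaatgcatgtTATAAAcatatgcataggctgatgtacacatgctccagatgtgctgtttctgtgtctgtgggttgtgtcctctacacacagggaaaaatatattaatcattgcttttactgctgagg
Timp3 (chr10:86300162-86300411, plus strand): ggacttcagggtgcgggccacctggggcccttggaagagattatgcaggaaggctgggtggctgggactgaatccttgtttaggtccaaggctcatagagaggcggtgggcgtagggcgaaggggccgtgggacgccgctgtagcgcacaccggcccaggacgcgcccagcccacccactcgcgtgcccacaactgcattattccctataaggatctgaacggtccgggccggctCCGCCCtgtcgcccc
Timp2 (chr11:118355412-118355661, minus strand): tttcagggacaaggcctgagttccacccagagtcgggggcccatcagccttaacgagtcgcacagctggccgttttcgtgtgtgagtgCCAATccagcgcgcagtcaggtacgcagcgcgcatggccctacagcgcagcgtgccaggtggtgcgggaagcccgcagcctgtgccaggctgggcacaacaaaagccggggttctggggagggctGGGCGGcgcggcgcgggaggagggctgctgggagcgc

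The Col1a2 window held CCAAT beginning 109 bases before the start and GGGCGG beginning 205 and 188 bases before it. The Col3a1 window held TATAAA at 117 bases, Timp2 held CCAAT at 162 and GGGCGG at 37 bases, and Timp3 held the reverse of GGGCGG at 15 bases. Over all 32851 promoter windows of this length, CCAAT or its reverse was in 33.8%, TATAAA in 12.4% and GGGCGG in 32.7%. Of the 32 windows of the members, 9, 6 and 18 held them. Col4a1 and Col4a2, the chains of the common type IV collagen, start 21 bases apart on opposite strands of chromosome 8, at 11312826 (minus strand) and 11312805 (plus strand).

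The lung nodule of mouse 29 held most of the matrix RNA. Of 618232 member UMIs in all, 540342 (87.4%) were from that nodule. Summed over the 40 members, the level was 10603 counts per 1000000 UMIs (CPM) in mouse 29, against 196.9, 327.9, 68.1, 141.9, 428.9 and 225.1 CPM in mice 27, 30, 31, 32, 33 and 34. The level was highest in mouse 29 for 38 of 40 members. The exceptions were Col5a1, a minor chain of fibrils, at 21.6 CPM in mouse 32 and 20.1 in mouse 29, and Col12a1, a collagen on the surface of fibrils, at 74.2 CPM in mouse 30 and 54.1 in mouse 29. In such sums fewer cells of a type and less RNA per cell cannot be told apart.

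The member with most UMIs in each role group showed how unequal the nodules were. Mgp, an inhibitor of mineralization, was at 4354 CPM in mouse 29 and at 75.1, 22.8, 8.86, 1.97, 1.22 and 0.930 CPM in mice 34, 33, 27, 30, 31 and 32. Dcn, decorin, which binds collagen fibrils, was at 294.6 CPM in mouse 29 and at 88.9, 30.9, 12.0, 7.83, 1.51 and 0.0267 CPM in mice 33, 34, 27, 32, 30 and 31. Both followed the order lung, then nodules that included thymus, then the rest, with a single lung nodule behind the first place. Col4a1 was less unequal, at 90.1 CPM in mouse 29 and at 28.6, 18.6, 4.45, 4.39, 2.29 and 1.07 CPM in mice 33, 27, 31, 34, 30 and 32.

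Col5a2, a chain that sets fibril width, was at 229.6 CPM in mouse 29 and at 0.0734 to 7.33 in the other nodules. Eln, elastin, was at 69.0 CPM in mouse 29 and at 0.0816 to 1.71 elsewhere, and Lox, lysyl oxidase, at 81.1 and 0.0519 to 2.04. Timp3, a matrix-bound protease inhibitor, was at 372.4 CPM in mouse 29 and at 2.69 to 15.2 elsewhere. Thus the mouse 29 nodule stood far above the others in each of these role groups, while Col12a1, at 0.106 to 74.2 CPM, did not follow that order. All 40 members reached 3 UMIs, the count taken as the floor, in mice 27, 29, 33 and 34. Under the floor were Col6a1, Fbln2, Lox, Loxl1, Thbs2 and Mmp2 in mouse 30, Col6a1, Col6a2, Dcn, Lum and Fbln1 in mouse 31, and Postn in mouse 32.

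To place the UMIs in cells, cells were clustered without the 40 members and clusters were called from marker lists of other genes. The 5 non-blood classes were 2027 fibroblast-like, 624 endothelial-like, 522 epithelial-like, 319 mural-like and 120 mesothelial-like cells. They held 75.23% of the member UMIs (95% Clopper-Pearson interval 75.1 to 75.3%, for counting error only), and the fibroblast-like cells alone held 63.5%. Clusters left unnamed by the naming rules held 15.05%. By nodule the share in non-blood classes was 79.6, 68.4, 63.5, 55.9, 37.7, 8.85 and 8.53% in mice 29, 33, 27, 31, 34, 30 and 32. In mouse 34 the unnamed clusters held 48.8%. Without mouse 29 the share over the remaining nodules was 44.98%. It was 56.68% over all nodules when cells were classed by marker UMIs without clusters.

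Fibroblast-like cells held the largest share of 34 members, from 34.75 to 77.33% of the UMIs of each. Lum, lumican, had its largest share in mesothelial-like cells (33.9%) and Col8a1, a collagen of vessel walls, in mural-like cells (46.2%). Blood classes led for the other 4 members. B-like cells led for Col4a2 (37.1%) and Col5a3 (50.5%), and erythroid-like cells for Col18a1 (39.4%) and Col5a1 (66.4%). Without mouse 29, fibroblast-like cells led for 24 members, Lum among them, B-like cells for 6 and erythroid-like cells for 5. Within single nodules, fibroblast-like cells led for 38, 34, 24 and 14 of 40 members in mice 29, 33, 34 and 27, for 10 of the 35 past the floor in mouse 31, for 6 of 34 in mouse 30 and for 0 of 39 in mouse 32.

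**Figure D1:**
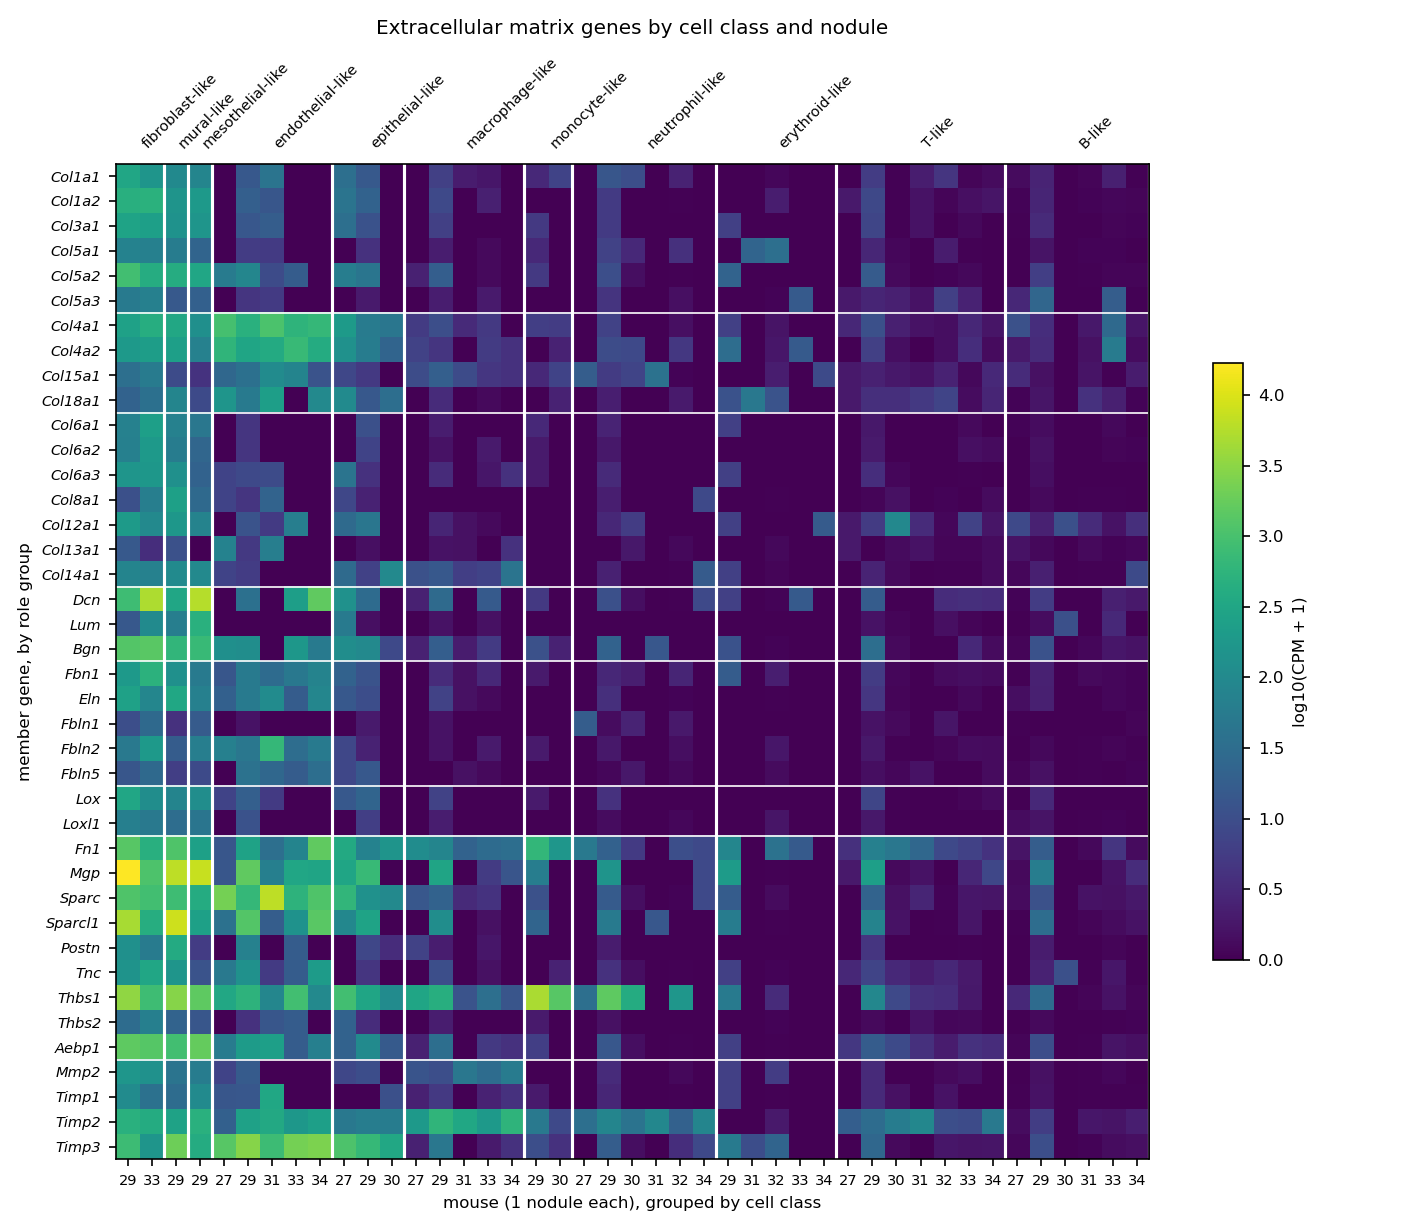
Level of each of the 40 members (rows, grouped by role between white lines) in each cell class of each nodule with at least 20 cells (columns, labelled by mouse), as log10(CPM + 1) in color. The brightest columns are the fibroblast-like, mural-like and mesothelial-like ones, Mgp in mouse 29 is the highest at 16875 CPM, and single bright squares stand in blood classes, such as Col12a1 in the T-like cells of mouse 30 at 92.9 CPM.

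Fibroblast-like cells were counted in number only in mouse 29 (1833 cells) and mouse 33 (168 cells), with 13 and 8 in mice 34 and 27 and 3 or fewer elsewhere. Summed over the members, matrix RNA was 36851, 16750, 37541 and 34568 CPM in the fibroblast-like cells of mice 29, 33, 34 and 27. The make-up differed between nodules. In mouse 29 Mgp reached 16875 CPM and Dcn 814 CPM, whereas in mouse 33 Mgp was at 1098 and Dcn at 5069 CPM. In the 13 cells of mouse 34 both were high, Mgp at 14447 and Dcn at 9575 CPM. The 8 cells of mouse 27 had Sparc, a collagen-binding glycoprotein, at 6582 CPM, Dcn at 4846 and Col1a1 at 2194 CPM. Each of these is 1 nodule a site, so there is no test between them.

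The fibrillar collagens also differed in their balance. Col1a1 and Col1a2, the chains of type I collagen, were at 315.3 and 461.5 CPM in mouse 29 and at 159.0 and 494.0 CPM in mouse 33. Col3a1, the type III chain of pliable tissue, was at 285.4 and 244.0 CPM. Col5a2 was at 899.6 CPM in mouse 29 and 409.8 in mouse 33. The type VI chains, which form beaded microfibrils around cells, were at 71.5 (Col6a1), 69.4 (Col6a2) and 160.9 CPM (Col6a3) in mouse 29 and at 239.8, 189.6 and 171.7 CPM in mouse 33. Thus Col1a2, Col3a1 and Col6a3 were close in both nodules, Col1a1 and Col5a2 were higher in mouse 29, and Col6a1 and Col6a2 were higher in mouse 33. Eln was at 260.9 and 86.7 CPM, Lox at 322.4 and 119.0 CPM and Fn1, fibronectin, at 1366 and 454.8 CPM, all higher in mouse 29. Bgn, biglycan, was close, at 1252 and 1388 CPM.

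Within mouse 29 the fibroblast-like cells fell into 4 main clusters, called A (684 cells), B (514), C (435) and D (180), and the main cluster of mouse 33 is called E (157). The members were not used to draw these clusters, but other genes of the same cells were, so the values are a description. Matrix genes outside the members were not left out, and Spp1, osteopontin, was among the leading genes of cluster C. Among A to E, cluster C held the highest levels of several collagens. Col1a1 was at 608.6 CPM in C against 160.0 in A, 165.9 in B, 183.4 in D and 161.4 in E. Col12a1 was at 388.9 CPM in C and at 64.1 to 148.9 in the others. Postn, periostin, which crosslinks collagen networks in remodeling tissue, was at 329.3 CPM in C, 139.4 in D, 50.6 in E, 28.4 in B and 6.78 in A. Of these 5 clusters, C also led for Mgp (24139 CPM), Fn1 (2001 CPM), Timp1, a secreted protease inhibitor (230.6 CPM against 36.3 to 56.0), and Col15a1, a collagen next to basement membranes (94.8 CPM against 1.06 to 57.6).

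The other clusters led for other members. Lox was highest in A, at 501.8 CPM against 121.3 to 268.8. Col13a1, a transmembrane collagen, was also highest in A, at 33.9 CPM against 2.62 to 8.51, as was Timp3, at 1037 CPM. Thbs1, thrombospondin, an activator of latent TGF-beta, was highest in B, at 5634 CPM against 791.4 to 2702. Cluster E of mouse 33 had Dcn at 5129 CPM, against 555.0 to 888.2 CPM in A to D, and Tnc, tenascin C, at 320.2 CPM against 13.8 to 205.7. A group of 20 cells of mouse 29 that clustered with E had Dcn at 7027 CPM, Lum at 382.8 and Mgp at 30725 CPM. High Dcn was therefore also counted in mouse 29, in a small cluster, whereas the low Mgp of E was not shared by those 20 cells.

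**Figure D2:**
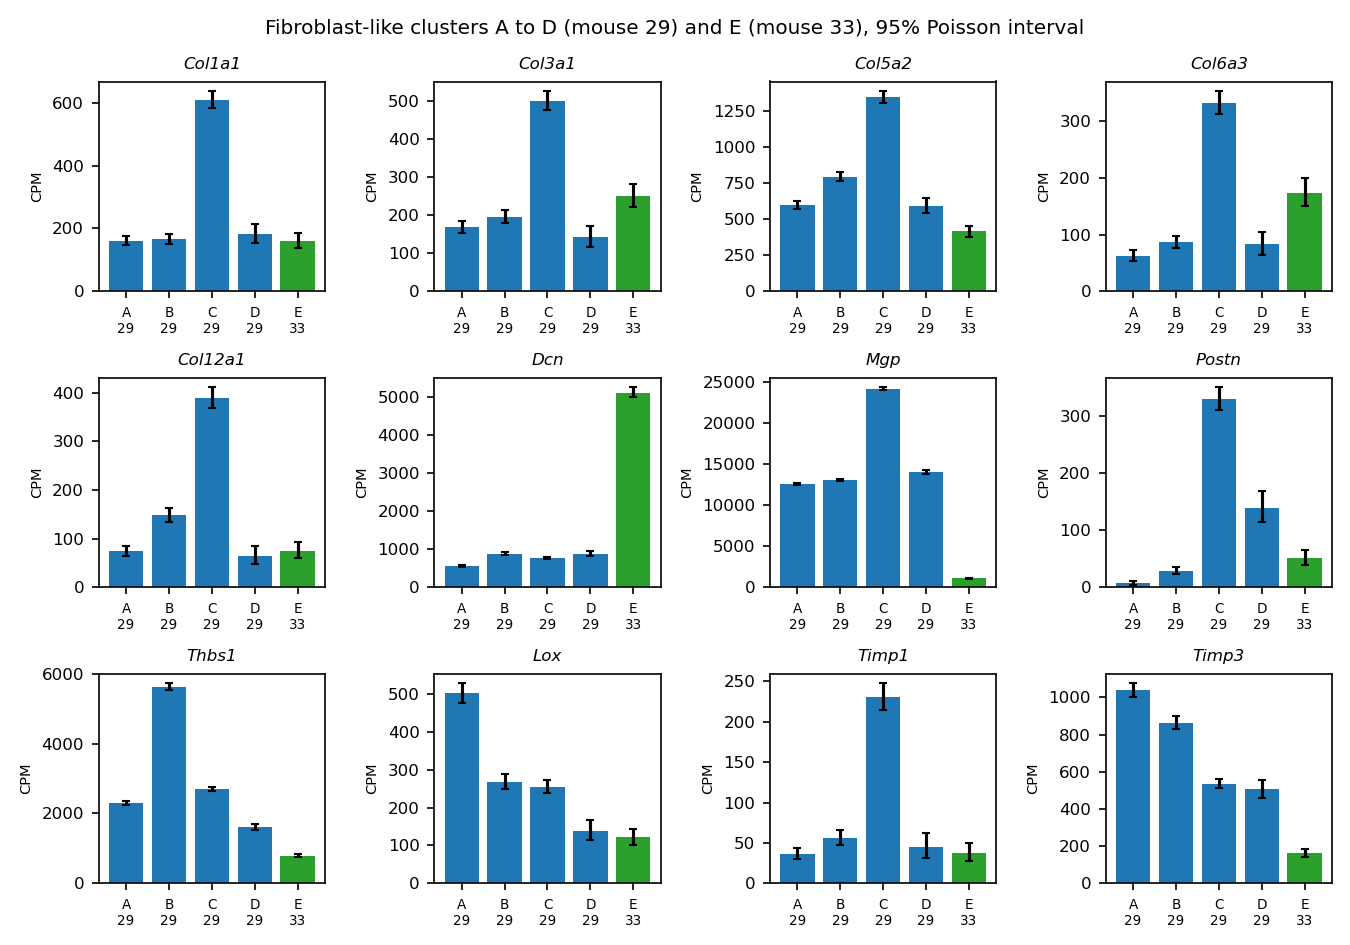
CPM of 12 members in 4 fibroblast-like clusters of mouse 29 (A to D, blue bars) and 1 of mouse 33 (E, green bars), with exact 95% Poisson intervals of the summed UMIs as error bars. Cluster C has the tallest bar for Col1a1 (608.6 CPM), Col12a1 (388.9 CPM) and Postn (329.3 CPM), B for Thbs1 (5634 CPM), A for Lox (501.8 CPM), and E for Dcn (5129 CPM).

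Mural-like cells, 305 in mouse 29 and 10 in mouse 33, had a summed matrix level of 27062 and 16639 CPM. In mouse 29 they had Sparcl1, a relative of Sparc, at 8026 CPM, Timp3 at 1966, Postn at 385.6, Eln at 322.6 and Col8a1 at 251.3 CPM. Col8a1 was at 9.80 CPM in the fibroblast-like cells of the same nodule. A cluster led by Rgs5 (66 mural-like cells of mouse 29) is called pericyte-marker. Another, led by Tagln and Myh11 (239 cells), is called smooth muscle-marker. These names rest on the leading genes, since Rgs5, Myh11, Acta2 and Tagln passed as markers in both. Of the marker list, Higd1b passed only in the pericyte-marker cluster and Cnn1 only in the smooth muscle-marker cluster. The pericyte-marker cluster was higher for Timp3 (3565 against 1277 CPM), Col4a1 (740.1 against 171.8), Col8a1 (544.1 against 125.2) and Postn (838.1 against 190.7). Eln was at 919.2 against 65.5 CPM, and its 272 UMIs in the pericyte-marker cluster were in 13 of 66 cells. The smooth muscle-marker cluster was higher for Mgp (7090 against 5117 CPM), Thbs1 (3298 against 2034), Aebp1 (950.7 against 692.8) and Lum (90.3 CPM against 0 UMIs). The 106 mesothelial-like cells of mouse 29 had a summed level of 21152 CPM, with Dcn at 5636 and Lum at 489.6 CPM. The 313 Lum UMIs were in 17 of those 106 cells. With 20 or more cells of either class in 1 nodule only, no test was made.

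Fibroblast-like and endothelial-like cells could be compared within mouse 29 and mouse 33, the nodules with at least 20 cells of both. Of 39 members tested, 26 were higher and 1 was lower in fibroblast-like cells by edgeR's quasi-likelihood test with Benjamini-Hochberg adjustment over 9403 genes. Over all genes, 7.70% were higher and 7.26% lower. The median log2 fold change was 3.29 over the members (3.0 with Lum at its bound, below) and 0.06 over all genes tested. The pair of mice leaves 1 residual degree of freedom. Without the replicate block for the mouse, 11 members were past the threshold.

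All 6 fibrillar collagens were higher in fibroblast-like cells. Col1a2 was at 461.5 CPM in fibroblast-like and 18.3 in endothelial-like cells of mouse 29, and at 494.0 CPM and 0 UMIs in mouse 33. Its log2 fold change was 5.22 ± 0.67 (SE; edgeR adjusted p = 9.00e-13). Col3a1 was at 285.4 and 13.0 CPM in mouse 29 and at 244.0 CPM and 0 UMIs in mouse 33, a log2 fold change of 4.88 ± 0.66 (edgeR adjusted p = 9.23e-12). Col1a1 was at 315.3 and 13.6 CPM in mouse 29 and at 159.0 CPM and 0 UMIs in mouse 33, with 4.88 ± 0.67 (edgeR adjusted p = 2.48e-11). For each, both fibroblast-like values lay above both endothelial-like values. The floor of 3 UMIs was at 1.77 CPM in the endothelial-like cells of mouse 29 and at 47.5 CPM in the 24 of mouse 33.

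Of the other collagens, 5 of 6 tested were higher. The type VI chains showed the largest differences, with log2 fold changes of 4.83 ± 0.68 for Col6a1, 4.76 ± 0.66 for Col6a3 and 4.74 ± 0.70 for Col6a2 (edgeR adjusted p = 9.38e-11, 3.72e-11 and 8.00e-10). In endothelial-like cells Col6a1 and Col6a2 each had 6 UMIs and Col6a3 had 13 UMIs in mouse 29, and none had any in mouse 33. Col8a1, at a log2 fold change of 2.16, did not pass (edgeR adjusted p = 0.0503), and Col13a1 was too low to test.

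The proteoglycans were higher, all 3 of them. Dcn was at 813.8 and 35.4 CPM in the fibroblast-like and endothelial-like cells of mouse 29 and at 5069 and 237.3 CPM in mouse 33, a log2 fold change of 4.74 ± 0.67 (edgeR adjusted p = 1.38e-10). Lum had 0 UMIs in the endothelial-like cells of both nodules, and against the floor of each nodule it was at least 7.69-fold higher in mouse 29 (13.6 CPM) and at least 2.22-fold higher in mouse 33 (105.4 CPM), with an edgeR adjusted p of 1.71e-06. All 15 Dcn UMIs of the endothelial-like cells of mouse 33 were among 4 of 24 cells, those in a cluster with the lymphatic marker Mmrn1. Both crosslinking enzymes, 3 of 5 elastic fiber genes (Fbn1, Eln and Fbln1) and 5 of 9 glycoproteins (Fn1, Mgp, Sparcl1, Thbs2 and Aebp1) were also higher. So were Mmp2, the gelatinase of stromal cells, and Timp1. Fn1 lost its call in 3 of 9 alternatives and Sparcl1 in 4 of 9. Over the alternatives their log2 fold changes went down to 0.72 and 0.19. Both lost it when nodules with 10 or more cells of both classes entered, which added mouse 34, at 1.15 and 1.27.

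The basement membrane collagens did not pass the test, 0 of 4. Col4a1 was at 256.6 CPM in fibroblast-like and 486.9 in endothelial-like cells of mouse 29 and at 432.7 and 569.5 CPM in mouse 33, a log2 fold change of -0.41 ± 0.52 (edgeR adjusted p = 0.84). Col4a2 had -0.92 ± 0.51 (edgeR adjusted p = 0.30), Col15a1 0.05 and Col18a1 -0.42. Timp3 was the only member lower in fibroblast-like cells, at 774.9 against 2897 CPM in mouse 29 and 161.5 against 2230 CPM in mouse 33. Its log2 fold change was -2.56 ± 0.61 (edgeR adjusted p = 0.00037). In the main endothelial cluster alone the Timp3 levels were 1351 and 957.8 CPM in mice 29 and 33, with no test made on that cluster.

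Past the members, a list of 89 other matrix genes (88 found) had 76 tested, with 36 higher and 4 lower in fibroblast-like cells. Pcolce, an enhancer of procollagen cleavage, had a log2 fold change of 5.51 and was at 41.5 and 138.6 CPM in fibroblast-like cells of mice 29 and 33. Fmod, fibromodulin, was at 20.3 and 13.6 CPM with 0 UMIs in endothelial-like cells. Spp1, osteopontin, had 5.29, from mouse 29 alone, at 1828 CPM in fibroblast-like cells and 0 UMIs in both classes of mouse 33. The largest differences in the other direction were for Itgb3, an integrin chain (-3.81), Timp4 (-3.58) and Nid2, a basement membrane linker (-3.51).

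In mouse 29 members were also counted in T-like cells. The T-like level was a median of 2.02% of the fibroblast-like level over the 40 members, and 27 members lay between 1 and 3%. In mouse 33 the median was 0.137% over 39 members. The part of free RNA in the comparison was not tested, and endothelial-like Col1a1 in mouse 29 (13.6 CPM) stands beside a T-like level of 4.64 CPM there, 1.47% of the fibroblast-like level.

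**Figure D3:**
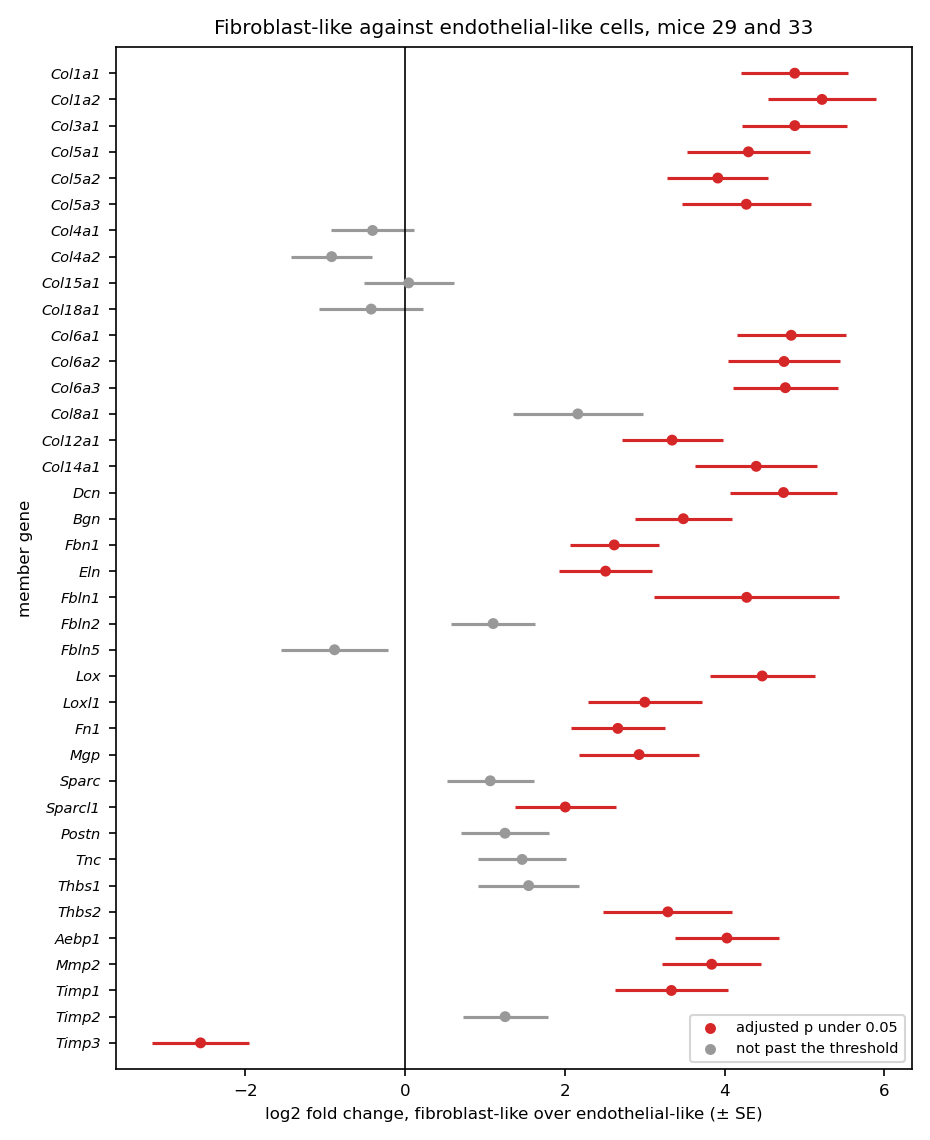
Log2 fold change of fibroblast-like over endothelial-like cells (x axis, ± SE) for 38 members (y axis) in mice 29 and 33, red where the edgeR adjusted p was under 0.05 and grey otherwise; Lum, with 0 UMIs in endothelial-like cells, is not drawn. Fibrillar collagens lie between 3.92 and 5.22, the 4 basement membrane collagens lie around 0, and Timp3 lies at -2.56.

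Endothelial-like cells numbered 464, 48, 43, 36, 24 and 8 in mice 29, 27, 31, 34, 33 and 32, and the nodules with 20 or more cells are described. The type IV chains and Timp3 were counted in all of them. Col4a1 was at 944.3, 486.9, 1056, 569.5 and 651.9 CPM in mice 27, 29, 31, 33 and 34, and different clusters made up the class in each nodule. Within the main endothelial cluster Col4a1 was at 944.3, 813.9, 766.2 and 723.7 CPM in mice 27, 29, 33 and 34, and the cells of mouse 31 were mostly in another cluster. Col4a2, in the same order, was at 577.8, 307.1, 383.9, 711.8 and 402.0 CPM. Timp3 was at 1330, 2897, 788.6, 2230 and 2510 CPM, and within the main cluster at 1330, 1351, 957.8 and 2737 CPM in mice 27, 29, 33 and 34, so that the order of the nodules depended on the clusters in them. Col18a1, whose end fragment is endostatin, was at 161.5, 51.3, 229.5, 0 and 97.8 CPM.

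Other members marked single nodules. Sparc was at 2187, 646.7, 6459, 537.8 and 1141 CPM, and Fbln2, a fibulin of vessel walls, was at 68.3, 46.0, 642.6, 31.6 and 54.3 CPM in the same order. Timp1 was at 12.4, 13.0, 333.8, 0 and 0 CPM. All 3 were highest in the spleen nodule of mouse 31, where 41 of the 43 cells were in a cluster with the sinusoid markers Stab2 and Plvap. Stab2 also passed as a marker in the cluster with the lymphatic marker Mmrn1. Mgp was at 12.4, 1589, 66.8, 316.4 and 293.4 CPM, highest in the lung nodule of mouse 29, where T-like cells also had 246.4 CPM. Col13a1 was at 74.6, 4.13, 62.6, 0 and 0 CPM, with few UMIs behind the value of mouse 31. The floor of 3 UMIs was at 47.5 CPM in the 24 cells of mouse 33, so lower levels were not detectable there. The 0 of mouse 34, with 36 cells, is limited in the same way.

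Dcn and Fn1 were highest in mouse 34, and there they came from few cells. Dcn was at 0, 35.4, 0, 237.3 and 1575 CPM and Fn1 at 12.4, 268.2, 33.4, 79.1 and 1554 CPM in mice 27, 29, 31, 33 and 34. The 145 Dcn and 143 Fn1 UMIs of mouse 34 were among 4 of its 36 cells, those in a cluster with the lymphatic markers Lyve1 and Mmrn1. Its 32 cells of the main cluster had 0 UMIs of both. Lyve1 also passed as a marker in the main cluster, whereas Mmrn1 did not. In mouse 29 the endothelial-like cells fell mainly into the main cluster (246 cells) and this lymphatic-marker cluster (196 cells). The lymphatic-marker cluster was higher for Timp3 (4317 against 1351 CPM), Fn1 (433.1 against 74.7 CPM) and Tnc (255.2 against 2.62 CPM). The main cluster was higher for Col4a1 (813.9 against 217.1 CPM), Sparcl1 (2219 against 404.0 CPM) and Sparc (1069 against 292.1 CPM).

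**Figure D4:**
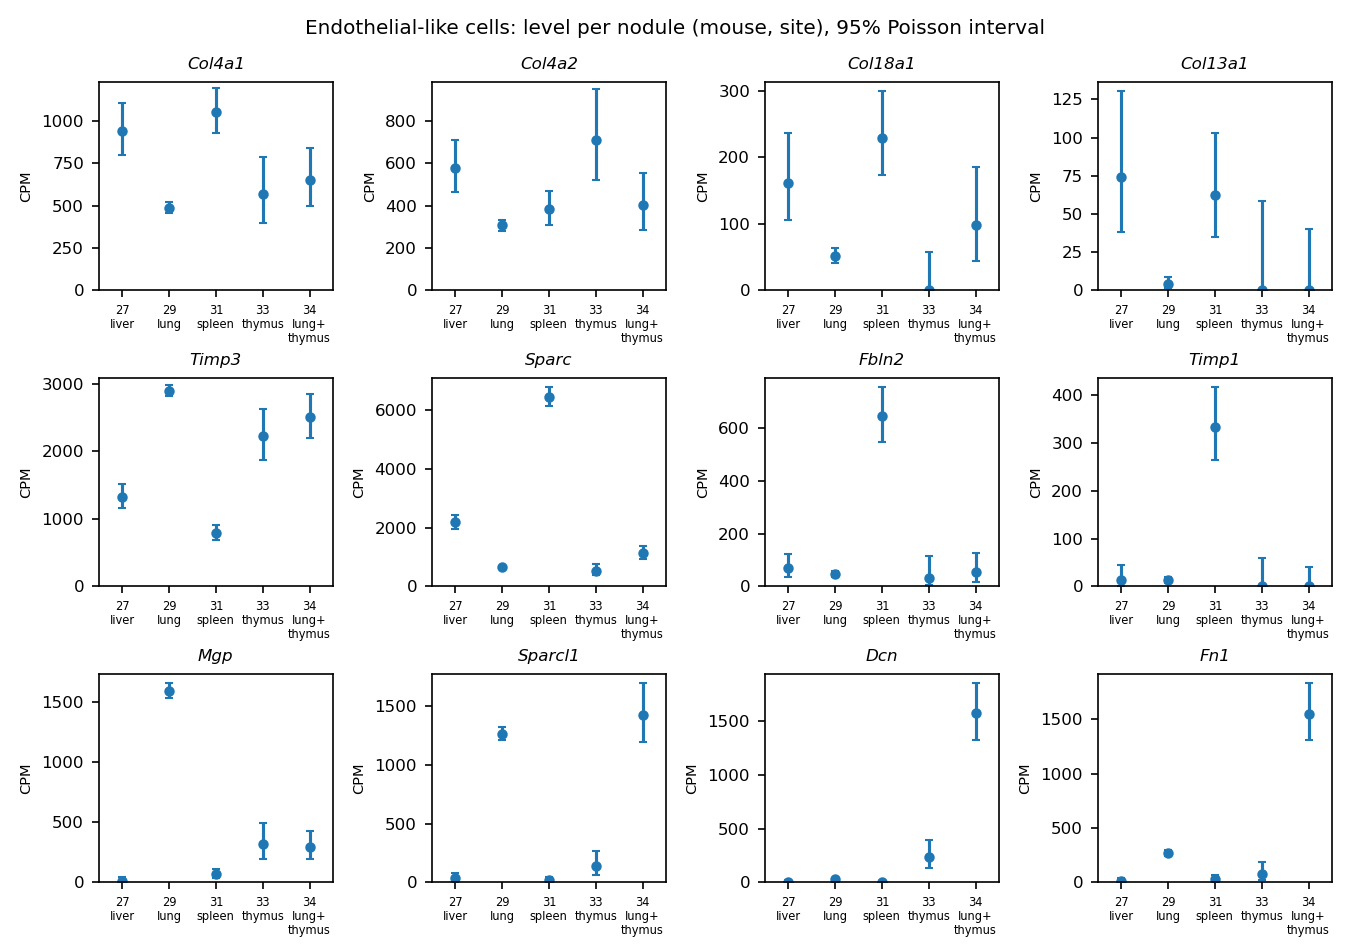
CPM of 12 members in the endothelial-like cells of 5 nodules (x axis, mouse and site), with exact 95% Poisson intervals of the summed UMIs. Sparc (6459 CPM), Fbln2 (642.6 CPM) and Timp1 (333.8 CPM) stand apart in the spleen nodule of mouse 31, Mgp (1589 CPM) in the lung nodule of mouse 29, and Dcn (1575 CPM) and Fn1 (1554 CPM) in mouse 34.

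Macrophages take up and cut matrix. Macrophage-like cells were set against T-like cells of the same nodules in mice 27, 29, 31, 33 and 34. Of 18 members tested, 8 were higher and 0 lower in macrophage-like cells by edgeR's quasi-likelihood test with Benjamini-Hochberg adjustment over 11293 genes. This is read against 23.2% higher and 22.6% lower over all genes. The median log2 fold change was 1.15 over the members and -0.07 over all genes. Without the replicate block 2 of 4 members tested were past the threshold, and without mouse 33 there were 5 of 18. Leaving out mouse 29 left 7 members past the low-count filter, with 6 called and a median log2 fold change of 3.64. The rest of the 18 were thus tested only with mouse 29 included.

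Timp2, which inhibits metalloproteinases and also helps to activate Mmp2, was at 186.9, 588.5, 326.3, 192.9 and 570.6 CPM in the macrophage-like cells of mice 27, 29, 31, 33 and 34. In T-like cells it was at 17.3, 30, 88.0, 8.08 and 50.2 CPM, and the groups did not overlap. The log2 fold change was 3.82 ± 0.39 (edgeR adjusted p = 3.39e-05). Mmp2 was at 11.7, 9.40, 47.1, 30.8 and 56.5 CPM in macrophage-like cells and at 0, 2.17, 0, 0.433 and 0 CPM in T-like cells, a difference of 5.47 ± 0.79 (edgeR adjusted p = 0.00035). Every macrophage-like value was above every T-like value for Mmp2 as well.

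Col14a1, a fibril-associated collagen, was at 10.2, 13.5, 5.05, 6.05 and 41.6 CPM in macrophage-like cells and had a log2 fold change of 5.13 ± 0.65 (edgeR adjusted p = 0.00015). Col15a1 was at 8.76, 18.2, 8.41, 3.68 and 2.97 CPM with 3.47 ± 0.57 (edgeR adjusted p = 0.00082), and its value in mouse 34 was under the floor of 3 UMIs. In the T-like cells of mice 27, 29 and 33, Col14a1 was at 0, 1.59 and 0.0722 CPM. Col15a1 was at 0.962, 1.45 and 0.216 CPM there. Thbs1 was uneven, at 305.2, 444.6, 11.2, 34.5 and 11.9 CPM in macrophage-like cells, with 4.47 ± 0.76 (edgeR adjusted p = 0.0010). Its T-like values were 0, 87.8, 2.90, 0.866 and 0 CPM, so that the T-like level of mouse 29 lay above the macrophage-like level of mice 31, 33 and 34. Timp2, Mmp2, Col14a1 and Col15a1 were called under every alternative in which they were tested.

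The remaining 3 called members were closer to the T-like level. Fn1 was at 113.9, 84.0, 20.2, 29.5 and 32.7 CPM in macrophage-like cells and at 2.89, 67.1, 24.9, 5.56 and 3.18 CPM in T-like cells, a log2 fold change of 2.07 ± 0.61 (edgeR adjusted p = 0.019). Dcn was at 1.46, 27.6, 0, 15 and 0 CPM against 0, 16.1, 0, 2.74 and 2.47 CPM, with 1.65 ± 0.59 (edgeR adjusted p = 0.048). Timp3 was at 1.46, 47.0, 0, 1.05 and 2.97 CPM against 0, 24.6, 0, 0.649 and 0.706 CPM, with 1.37 ± 0.48 (edgeR adjusted p = 0.045). For these the groups overlapped, and the part of free RNA was not tested. Timp3 lost its call in 11 of 13 alternatives, Dcn in 7 of 13 and Fn1 in 5 of 15. Of the list of other matrix genes 24 were higher and 4 lower of 40 tested, led by the metalloproteinases Mmp19 (6.78), Mmp12 (6.56) and Mmp14 (6.40) and, in the other direction, by Plod2, a lysyl hydroxylase (-3.54), and the integrin chains Itgb3 (-2.86) and Itga1 (-2.38).

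B-like and T-like cells were compared in the nodules with a B cell receptor library, those of mice 27, 29, 31, 33 and 34. Of 26 members tested, 0 were higher and 4 were lower in B-like cells by edgeR's quasi-likelihood test with Benjamini-Hochberg adjustment over 15317 genes. Over all genes 15.9% were higher and 15.3% lower. The median log2 fold change was -0.68 over the members and 0.11 over all genes. DESeq2 called 0 members higher and 7 lower, against 2651 higher and 3235 lower of all 15317 genes. Without the replicate block edgeR called 1 of 14 tested, and 2 were called without mouse 27 and 2 without mouse 34. With marker UMIs, without the low-count filter, without mouse 29 or without mouse 31, 1 member was called higher in B-like cells.

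Timp2 was at 0.381, 4.82, 0.790, 0.661 and 1.25 CPM in the B-like cells of mice 27, 29, 31, 33 and 34, below every T-like value, with a log2 fold change of -4.64 ± 0.67 (edgeR adjusted p = 0.0023). Aebp1, a collagen-binding carboxypeptidase-like protein, was at 0.152, 9.11, 0.0456, 0.683 and 0.517 CPM in B-like and 3.85, 15.8, 2.90, 2.96 and 2.47 CPM in T-like cells, with -2.64 ± 0.77 (edgeR adjusted p = 0.036). The B-like value was the lower in each nodule for both. Col1a2 was at 0.102, 1.73, 0.106, 0.198 and 0.136 CPM against 0.962, 7.39, 0.579, 0.505 and 0.706 CPM, with -1.97 ± 0.54 (edgeR adjusted p = 0.028). Mgp was at 0.305, 62.1, 0.0304, 0.595 and 2.51 CPM against 0.962, 246.4, 0.579, 1.88 and 7.06 CPM, with -1.70 ± 0.31 (edgeR adjusted p = 0.0059), and had a log2 fold change of 0.26 when cells were classed by marker UMIs. Some of these values were under the floor of 3 UMIs. Among them were T-like Col1a2 in mice 27 (1 UMI) and 34 (2 UMIs) and T-like Mgp in mouse 27 (1 UMI). For Aebp1, Col1a2 and Mgp both classes were highest in mouse 29, the nodule with most fibroblast-like RNA, and the part of free RNA was not tested. Of the 4, only Timp2 was called under every alternative. Of the list of other matrix genes 2 were higher and 11 lower of 64 tested. The higher ones were Ltbp1, a carrier of latent TGF-beta (3.46), and Hspg2, perlecan (2.59), and the largest differences in the other direction were for the collagen receptors Ddr1 (-4.61) and Itga2 (-4.31) and for Spp1 (-3.48).

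Some collagens were high in the B-like cells of single nodules. Col4a2 was at 0.915, 2.34, 0.562, 57.0 and 0.381 CPM and Col4a1 at 10.2, 2.64, 0.851, 27.2 and 0.735 CPM in mice 27, 29, 31, 33 and 34. In mouse 33 the B-like cells held 79.1% of the Col4a2 and 60.1% of the Col4a1 UMIs of the nodule. Col5a3, a type V chain, was at 2.01, 24.0, 0.0304, 17.0 and 0.0545 CPM, with a log2 fold change over T-like cells of 3.03 ± 1.00 (edgeR adjusted p = 0.053), and Col4a2 had 1.83 ± 1.22 (edgeR adjusted p = 0.29). Col14a1 was at 0.178, 1.36, 0.0608, 0.0440 and 7.82 CPM, and the B-like cells of mouse 34 held 79.3% of that nodule's Col14a1 UMIs. Each of these was thus carried by 1 or 2 nodules.

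The receptor sequences allowed the same genes to be read by clonotype, without replication. In mouse 33 the largest B cell clonotype (390 cells) had Col4a2 at 78.8 CPM (95% Poisson interval 71.8 to 86.4) and Col5a3 at 2.58 CPM (1.44 to 4.25). The second clonotype (311 cells) had Col4a2 at 47.6 CPM and Col5a3 at 13.5 CPM (10.4 to 17.2). Col4a1 was at 47.2 CPM in the largest and 22.8 in the second. The 3481 B-like cells of that nodule with no clonotype call had Col4a2 at 55.2 CPM and Col5a3 at 21.1 CPM. Col5a3 thus ranked opposite to Col4a1 and Col4a2 between these 2 clonotypes of 1 nodule. In mouse 34 Col14a1 was at 5.02 CPM in the largest and 8.30 in the second clonotype, and in mouse 29 the largest clonotype (281 cells) had Col5a3 at 19.2 CPM.

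T-like cells showed a comparable case in the liver nodule of mouse 30. Col12a1 was at 92.9 CPM in its T-like cells, against 0.962, 4.35, 2.32, 0.175, 5.85 and 0.706 CPM in mice 27, 29, 31, 32, 33 and 34. Of its 1429 Col12a1 UMIs 98.95% (Clopper-Pearson interval 98.3 to 99.4%) were in T-like cells. The largest T cell clonotype (2088 cells) had 134.6 CPM (125 to 145). Clonotypes below the second (357 cells) together had 10.3 CPM (4.69 to 19.5), and T-like cells with no clonotype call had 77.3 CPM. Fn1 was at 46.5 CPM in the largest clonotype, 5.70 in those below the second and 50.5 in cells with no call. Timp2, in the same order, was at 87.6, 31.9 and 44.8 CPM. The second clonotype, 38 cells over all classes, is not in these values. T-like Timp2 in all 7 nodules was 17.3, 30, 58.7, 88.0, 9.40, 8.08 and 50.2 CPM in mice 27, 29, 30, 31, 32, 33 and 34, with no nodule far from the rest. In mouse 32 the largest clonotype (4597 cells) had Col5a3 at 7.14 CPM and Col18a1 at 7.39 CPM. The second clonotype (36 cells) had 0 and 1 UMI. Clonotypes below the second (415 cells) had 1 UMI of each, under the floor, and cells with no call had 0.797 and 3.98 CPM.

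Myeloid and erythroid cells added members of their own. Thbs1 was at 4981 and 1363 CPM in the monocyte-like cells of mice 29 and 30 and at 1510, 396.7 and 165.7 CPM in the neutrophil-like cells of mice 29, 30 and 32. Col5a1 was at 34.4 CPM in the erythroid-like cells of mouse 32, whose nodule held 4036 of the 4211 erythroid-like cells, and at 22.0 CPM in the 26 of mouse 31. Col18a1 was at 11.1 CPM in the erythroid-like cells of mouse 32 and at 48.5 CPM in those of mouse 31.

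**Figure D5:**
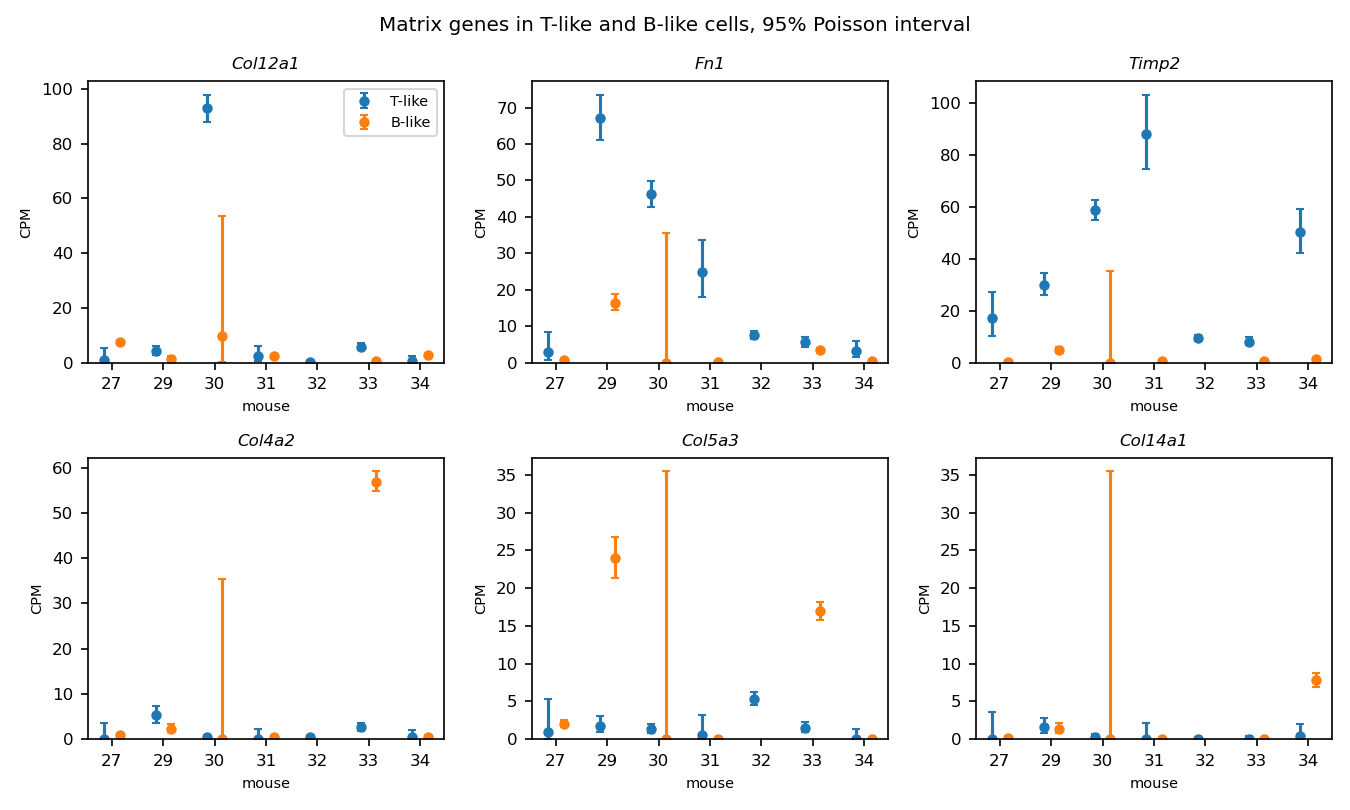
CPM of 6 members in T-like (blue) and B-like (orange) cells by mouse, with exact 95% Poisson intervals; the wide interval at mouse 30 is from few B-like cells. Col12a1 stands out in T-like cells of mouse 30 (92.9 CPM), Col4a2 in B-like cells of mouse 33 (57.0 CPM), Col5a3 in B-like cells of mice 29 (24.0 CPM) and 33 (17.0 CPM), and Col14a1 in those of mouse 34 (7.82 CPM).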

How the data were processed

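White nodules were stored in tissue solution, dissociated, freed of dead cells and sequenced as single cells by the study. The deposited matrices give the authors' raw counts of UMIs for each gene in each called cell, with the builds GRCm38 and mm10 in the submitters' processing notes; aligner settings are not given in the sources used here. The deposited receptor tables give the authors' clonotype of a barcode, used as a label. Cells with at least 201 UMIs, at least 101 genes and at most 10% mitochondrial UMIs were kept. No doublet caller was run, and cells with 2 or more marker UMIs of another lineage were left out as an alternative. UMIs were scaled to 10000 a cell, and 2000 variable genes, the members left out, gave 30 components, 15 neighbors and Leiden clusters at resolution 1 (scanpy 1.11.5, leidenalg 0.10.2, Python 3.11.15). Clusters were called "X-like" from marker lists by at least 3 markers. A cluster stayed unnamed with fewer markers, with markers of 2 classes or 2 lineages, or with leading genes of another class. It also stayed unnamed with few UMIs and no marker among its leading genes, or with immunoglobulin genes among them. These naming rules were set after the clusters were seen.

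UMIs were summed per nodule and class, with at least 20 cells, and tested with edgeR 4.0.16 (quasi-likelihood, TMM, filterByExpr) in R 4.3.3, with the mouse as a replicate block since both classes came from the same animal. Benjamini-Hochberg adjustment ran over all genes tested, at 0.05. CPM is the summed count per 1000000 UMIs of the class, with exact Poisson intervals, and intervals and the floor of 3 counts cover counting error only. Alternatives were DESeq2 1.42.0, upper-quartile scaling, no low-count filter, 10 or 50 cells, other ways of calling cells, no replicate block and leaving out each mouse. The scripts were tested on simulated data. Mural-like against fibroblast-like cells was not tested, since 1 nodule had enough cells of both, nor was spleen against liver.

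Named with a value in each nodule were the members past the threshold with the 8 largest fold changes in each direction and the member with most UMIs in each role group, plus the 3 largest of the other matrix list. Further genes were named after their values were seen, among them those given by cluster, clonotype, or nodule alone. The members and lists were chosen with earlier results of these data known.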

Additional observations from a re-analysis of the deposited data

Results flagged for a closer look

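In groups of 5 to 7 nodules, 1 library was far from the others for 17 of the 32 members and classes examined. Chance marks about 1 in 20 groups, but many of these genes were named after their values were seen, so that rate cannot be set against this count. In endothelial-like cells the spleen nodule of mouse 31 was far above the other 4 nodules for Sparc (6459 CPM), Fbln2 (642.6 CPM) and Timp1 (333.8 CPM), mouse 34 for Dcn (1575 CPM) and Fn1 (1554 CPM), and the lung nodule of mouse 29 for Mgp (1589 CPM).

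In macrophage-like cells mouse 34 was far above the rest for Col14a1 (41.6 CPM) and mouse 29 for Timp3 (47.0 CPM). In T-like cells mouse 30 was far above for Col12a1 (92.9 CPM), and mouse 29 for Mgp (246.4 CPM) and Col1a2 (7.39 CPM). In B-like cells mouse 33 was far above for Col4a2 (57.0 CPM), mouse 34 for Col14a1 (7.82 CPM), and mouse 29 for Mgp (62.1 CPM), Aebp1 (9.11 CPM), Timp2 (4.82 CPM) and Col1a2 (1.73 CPM).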

How the results depend on the processing

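Of the 27 members called between fibroblast-like and endothelial-like cells, 11 stayed past the threshold in every alternative: Col1a1, Col1a2, Col3a1, Col5a1, Col5a3, Col6a1, Col6a2, Col6a3, Col14a1, Bgn and Mmp2. Without the replicate block 11 were called, and over all genes 355 without it and 680 by DESeq2, against 1407. Leaving out a mouse or asking for 50 cells left 1 nodule and could not be fitted. Between macrophage-like and T-like cells the 8 calls became 5 when the members entered the clustering, 2 without the replicate block and 5 to 8 when each mouse was left out. Between B-like and T-like cells the 4 calls became 7 by DESeq2, 2 with cells classed by marker UMIs, 1 without the block and 2 to 4 without each mouse. Under marker UMIs, without the low-count filter, without mouse 29 and without mouse 31, 1 member was called higher in B-like cells. Of the calls with marker UMIs, 1 of 2 was also a main call, against 2 of 3 without mouse 29 and 2 of 4 without mouse 31. Mgp turned to a log2 fold change of 0.26 with marker UMIs. The cause was not tested.

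Upper-quartile scaling moved the median over all genes from -0.07 to -0.21 between macrophage-like and T-like cells, with 2329 genes higher and 3075 lower against 2617 and 2550, and from 0.11 to -0.01 between B-like and T-like cells. The share of member UMIs in non-blood classes, 75.23%, was 74.9% with the members in the clustering, 56.68% by marker UMIs, 85.17% without doublet-like cells and, chosen after seeing the data, 75.37% with unnamed clusters named by their leading list and 44.98 to 77.16% without each mouse, the lowest without mouse 29. The 24 endothelial-like cells of mouse 33 put the floor at 47.5 CPM, so lower levels were not detectable there. A cluster of 44 cells with 11 endothelial markers stayed unnamed, since its leading genes included those of another class. With unnamed clusters named by their leading list, mouse 33 had 68 endothelial-like cells, and 26 members were called against fibroblast-like cells.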

Other observations

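Timp3 was counted in epithelial-like cells of 4 nodules, at 1114, 679.2, 341.5 and 157.1 CPM in mice 27, 29, 30 and 34, the last with 14 cells. In the erythroid-like cells of mouse 32 Fn1 was at 38.4 CPM and Timp3 at 22.2 CPM.

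In the 1312 cells of mouse 34 that were left unnamed, Mgp was at 622.2 CPM and Dcn at 143.2 CPM. In the unnamed cells of mouse 32 Thbs1 was at 485.9 CPM and Fn1 at 265.5 CPM.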
